A study of Mus musculus with 24 samples.

Results

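10 genes that mark the hepatocytes around the central vein of the liver lobule were followed through mouse liver RNA sequencing: Glul, Cyp2e1, Cyp1a2, Oat, Lect2, Rhbg, Axin2, Slc1a2, Tbx3 and Lgr5. They were chosen by symbol, and all 10 were found and passed the filter on low counts in both tables, out of 46068 gene symbols. The livers were those of C57BL/6 mice of both sexes, either wild type (WT) or, by label, without the cytochrome P450 genes Cyp2b9, Cyp2b10 and Cyp2b13 (Cyp2b-null). For 10 weeks the mice of each sex and genotype ate normal chow (ND) or a diet holding 60% fat (HFD), which gave 8 groups of 3 libraries and 24 libraries in all. No transgene or Cre is named in the labels, and all groups share the strain. The series asks how Cyp2b bears on obesity and hepatic lipids under a high-fat diet. Age is not given in the sources used here.

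The liver lobule is zoned. Blood enters at the portal tract and leaves through the central vein, and the endothelium of that vein releases Wnt ligands and R-spondin 3, which keep β-catenin active in the hepatocytes beside it. Those pericentral cells make glutamine from the ammonia that escapes the urea cycle upstream, and they carry much of the drug-oxidising machinery of the liver. In the nucleus β-catenin acts through TCF/LEF factors, which recognise a short word in DNA.

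To show where that word lies near the members, the bases upstream of the RefSeq start (build GRCm38.p6) were searched for the word CTTTGAA, the word CTTTGAT, the word CTTTGTA and the word CTTTGTT on both strands. The words differ only in their last letters. Of the 7 members with an entry, 4 held a match in the 250 bases before the start, against 14.8% of the 32851 promoters searched. The match lay 135 bases before the start in Cyp2e1, 244 in Cyp1a2, 32 in Lect2 and 207 in Slc1a2. A match is a description of letters and not a binding site. The first 3 are printed because they are the members with a match outside the annotated gene, 5′ to 3′ on the strand of the gene and only as far as bases that neither annotation transcribes. Capitals mark the match. They lie at chr7:140763569-140763738 (plus strand, Cyp2e1), chr9:57683704-57683905 (minus strand, Cyp1a2) and chr13:56548539-56548788 (minus strand, Lect2).
Cyp2e1: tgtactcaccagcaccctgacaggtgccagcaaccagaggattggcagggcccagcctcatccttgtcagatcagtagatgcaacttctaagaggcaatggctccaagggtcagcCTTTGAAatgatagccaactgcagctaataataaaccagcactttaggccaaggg
Cyp1a2: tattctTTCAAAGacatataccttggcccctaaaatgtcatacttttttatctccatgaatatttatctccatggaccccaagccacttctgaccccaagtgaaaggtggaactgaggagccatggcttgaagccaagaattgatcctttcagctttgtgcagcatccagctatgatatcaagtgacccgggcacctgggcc
Lect2: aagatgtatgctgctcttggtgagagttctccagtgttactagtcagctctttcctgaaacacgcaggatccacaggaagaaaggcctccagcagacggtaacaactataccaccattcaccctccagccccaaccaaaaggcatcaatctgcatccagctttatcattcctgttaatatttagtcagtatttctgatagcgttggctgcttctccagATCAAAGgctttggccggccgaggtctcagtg

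In the GENCODE annotation of GRCm38 all 10 members are protein-coding genes. Glul lies on chromosome 1 (153899944 to 153909723), Slc1a2 on 2 (102658659 to 102790784), Rhbg on 3 (88242874 to 88254709) and Tbx3 on 5 (119670669 to 119684724). Cyp2e1 (140763739 to 140774987) and Oat (132557478 to 132576398) share chromosome 7, and Cyp1a2 lies on 9 (57676937 to 57683703). Lgr5 is on chromosome 10 (115450311 to 115587780), Axin2 on 11 (108920349 to 108950783) and Lect2 on 13 (56542464 to 56548502). Exons of Glul overlap the microRNA gene Mir8114 on the same strand, to which up to 1663 reads of a male library and 0 of any female library were assigned. Reads in that overlap could be split at counting. Tbx3 shares exonic bases with the antisense gene Tbx3os1, which took at most 43 reads of a male and 16 of a female library. Whether strand was used in counting is not given in the sources used here.

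Male libraries held 8.28 M to 20.2 M counts (M, 1e6) and female ones 2.01 M to 2.66 M. Male RNA and libraries were made with other kits than female ones, so effects of sex and of kit cannot be told apart, and each table was fitted alone. Titles set the groups, although the genotype field of 6 female libraries says otherwise. In females Cyp2b13 had 0 counts in all 6 libraries labelled Cyp2b-null, against 235 to 527 counts per 1e6 (CPM) in WT. In males Cyp2b13 averaged 2.72 ± 0.69 CPM in WT and 2.84 ± 1.92 in null on ND, and 3.83 ± 0.06 and 3.74 ± 0.53 on HFD (SD, n = 3). Male Cyp2b9 averaged 0.215 ± 0.128 in WT and 2.88 ± 1.19 in null on ND, and 22.5 ± 16.1 and 3.81 ± 3.26 on HFD (SD, n = 3). Male Cyp2b10 averaged 4.88 ± 3.09 and 0.774 ± 0.225 on ND, and 0.873 ± 0.510 and 1.06 ± 1.09 on HFD (SD, n = 3). On ND, Cyp2b9 thus went against the label. Cyp2b13 had similar means in both genotypes on each diet, and Cyp2b10 was lower in null on ND but not on HFD. The median log2 difference of these 3 genes on ND was 0.12 with all libraries and 0.49 without null ND library 1, described next. The targeted genes therefore do not settle the label in males, and every male comparison of genotype below rests on libraries labelled Cyp2b-null. Male null ND library 1 stood apart from the other 11. Its median rank correlation with the other male libraries was 0.800, where the lowest of the others was 0.965, and 32.8% of its counts came from mitochondrially encoded genes against 3.51% to 7.91%. In females the lowest was WT ND library 1, at 0.883, with a mitochondrial share of 14.4%. Liver tissue was checked with hepatocyte markers, of which 7 of 8 were matched: their summed level was 71961 to 128130 CPM in females, 72964 to 156208 in 11 male libraries and 43182 in male null ND library 1.

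Levels of different genes were compared as CPM per kilobase of annotated exon. Cyp2e1 stood highest in both sexes, with a median of 4703 CPM per kb in the 11 male libraries other than null ND library 1 and 3343 in the 12 female ones. Oat followed with medians of 405 and 574, and Glul with 319 and 346. Lect2 had 155 in males and 335 in females, and Cyp1a2 had 304 and 315. Slc1a2 (17.6 and 14.9), Tbx3 (5.86 and 5.56), Rhbg (3.48 and 5.89), Axin2 (1.56 and 1.45) and Lgr5 (0.833 and 1.07) made up the low end. The range of Cyp2e1 overlapped with that of no other member, and neither did that of Slc1a2 in males. The ranges of Oat, Glul, Cyp1a2 and Lect2 ran into those of their neighbours, and so did those of Tbx3, Rhbg, Axin2 and Lgr5. The high members are metabolic enzymes and a secreted protein, and the low ones are signalling proteins, a transcription factor and transporters.

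No member passed the test in any of the 10 comparisons, 5 per sex, in edgeR's quasi-likelihood test with Benjamini-Hochberg adjustment over all genes, with a call at an adjusted p below 0.05. The shares of all tested genes called were as small. In males they were 0.0134% for the genotypes on ND and 0.0% for the genotypes on HFD, for diet in WT, for diet in the null groups and for the interaction. Without null ND library 1 they were 0.0462%, 0.0%, 0.72%, 0.0859% and 0.00661%. In females they were 0.127%, 0.0169%, 0.0169%, 0.0% and 0.0%. At an unadjusted p below 0.05 the number of members in the same 5 comparisons was 0, 1, 0, 2 and 1 in males, where 18.6%, 2.12%, 6.49%, 11.1% and 4.65% of all genes were below it. Without that library 1, 2, 3, 2 and 1 members were, beside 17.3%, 5.17%, 17.2%, 6.46% and 7.72% of all genes. In females 2, 0, 1, 1 and 1 members were, beside 6.33%, 2.44%, 3.48%, 4.8% and 2.89%. DESeq2 called no member, while over all genes it called 2.88%, 0.121%, 0.519%, 0.755% and 0.121% in males and 0.643%, 0.0169%, 0.161%, 0.0254% and 0.0931% in females. The values below are therefore levels and differences with their errors, and no p that misses the threshold shows that groups are alike. Whether the 3 libraries of a group were separate animals is not stated, so each p-value covers the spread among these libraries alone, which may be technical. In bulk tissue, fewer pericentral cells and less RNA per cell cannot be told apart.

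**Figure D1:**
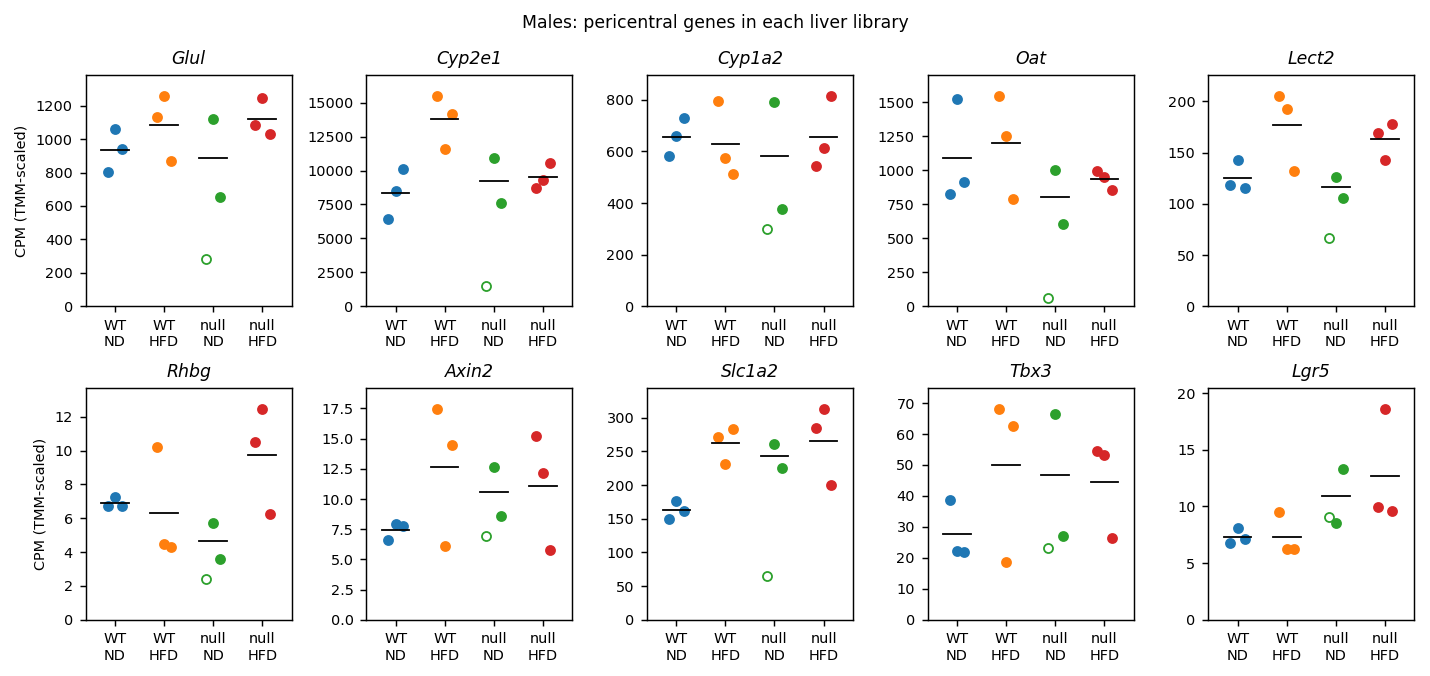
Level of each member (vertical axis, TMM-scaled CPM, from 0) in the 12 male libraries, by group (WT or labelled Cyp2b-null, ND or HFD). Points are libraries, lines are group means, and the open point is null ND library 1, which is left out of its line: it lies lowest of all for 7 of the 10 genes, for instance at 63.6 CPM for Oat.

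**Figure D2:**
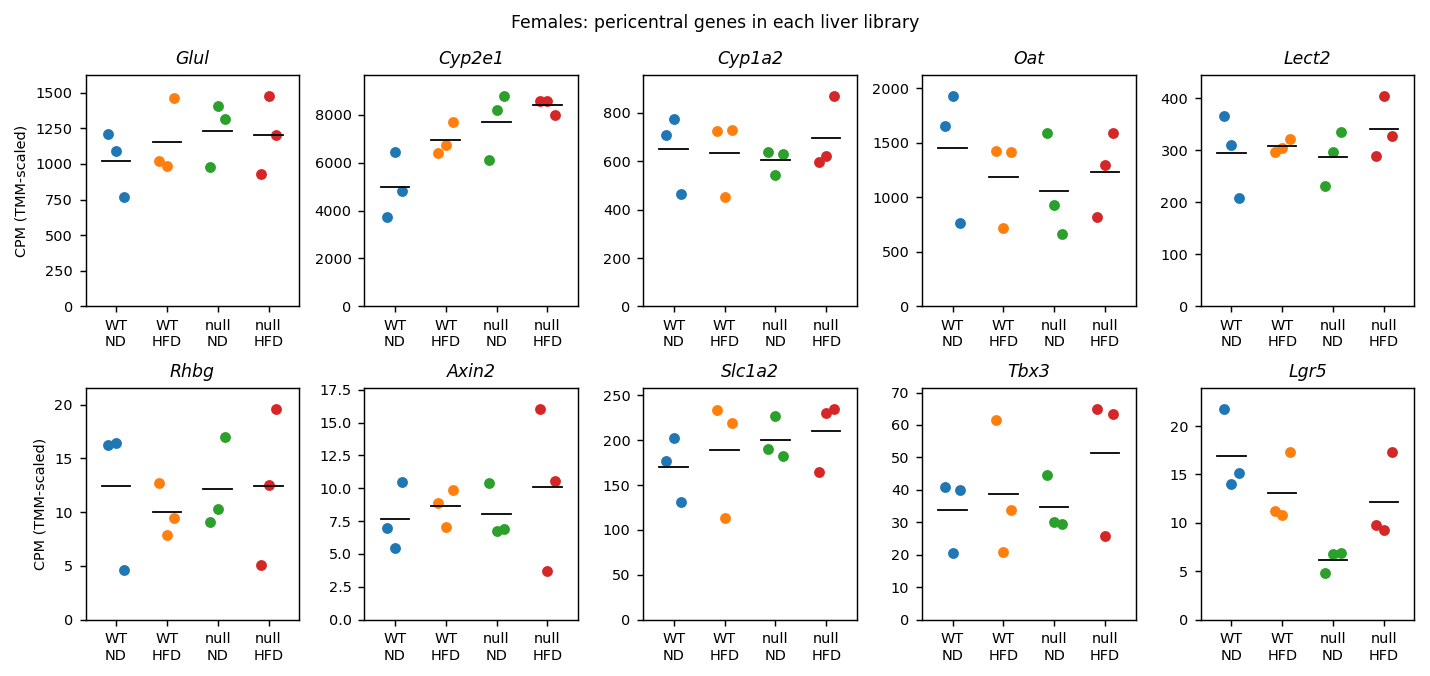
The same for the 12 female libraries, with all 3 libraries of a group in each line. In the Lgr5 panel the 3 null ND libraries, at 4.78 to 6.87 CPM, lie below the 3 WT ND libraries, which start at 14.0. In that contrast 11.3% of tested genes had groups that did not overlap.

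Cyp2e1 encodes the ethanol-inducible P450 that oxidises ethanol, acetone and paracetamol. In WT males it stood at 6459, 8494 and 10148 CPM on ND and at 15516, 11620 and 14147 on HFD. Every HFD library lay above every ND one, with a log2 difference of 0.72 ± 0.52 (SE; adjusted p = 0.888), or 0.72 ± 0.22 (adjusted p = 0.14) when null ND library 1 was kept out of the fit. In the comparison of diets in WT males, 23.0% of tested genes had groups that did not overlap, and Cyp2e1 and Slc1a2 were the members among them. The 7 hepatocyte markers had the opposite order over the same libraries, with a summed 118531 to 156208 CPM on ND and 95129 to 112758 on HFD, and their part in the difference was not tested. The null males had 8741, 9267 and 10567 CPM on HFD, all below the WT males on that diet (log2 difference -0.53 ± 0.52, adjusted p = 1.0, and -0.53 ± 0.22, adjusted p = 0.876, without null ND library 1). In that contrast 8.27% of genes had groups that did not overlap. On ND the null males had 1522, 10919 and 7576 CPM, a log2 difference from WT of -0.33 ± 0.52 with all libraries and 0.14 ± 0.25 without the first, so that its sign rested on that library.

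Female Cyp2e1 had another order. WT libraries stood at 3734, 6424 and 4827 CPM on ND and 6396, 6729 and 7701 on HFD, and the null libraries at 6123, 8210 and 8798 on ND and 8593, 8574 and 8002 on HFD. On HFD every null library was above every WT one by a log2 difference of 0.27 ± 0.22 (adjusted p = 1.0), in a contrast where 6.97% of genes did not overlap. On ND the difference was 0.63 ± 0.22 (adjusted p = 0.532), and the highest WT library overlapped with the lowest null one. The male and female genotype effects on HFD thus had opposite signs in libraries that did not overlap, which held for 0.252% of the genes tested in both tables. A fit of all 24 libraries, added after the data were seen, gave a female minus male effect of 0.80 ± 0.57 (adjusted p = 1.0) in a test that called 0.0133% of genes.

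Cyp1a2, the P450 that oxidises caffeine and is induced through the aryl hydrocarbon receptor, overlapped between the groups of both sexes. WT males had 582, 659 and 728 CPM on ND and 793, 573 and 513 on HFD, and null males 301, 792 and 375 on ND and 544, 611 and 816 on HFD. The male genotype difference on ND was -0.42 ± 0.35 with null ND library 1 and -0.17 ± 0.29 without it, and the diet difference in null was 0.42 ± 0.35 and 0.17 ± 0.29. Female libraries ran from 451 to 871 CPM, also with overlap in every comparison. The female genotype difference was -0.10 (95% interval -0.62 to 0.42) on ND and 0.14 (-0.38 to 0.65) on HFD, on the log2 scale.

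Glul encodes glutamine synthetase, which is confined in liver to the last cells before the central vein. Male libraries had 801, 1061 and 939 CPM in WT on ND and 1129, 1260 and 870 on HFD. The null males had 286, 1121 and 652 on ND and 1086, 1247 and 1028 on HFD. Groups overlapped in all 4 comparisons, and the genotype difference on ND was -0.44 ± 0.39 with library 1 of the null group and -0.07 ± 0.25 without it. In females Glul had 1214, 1092 and 767 CPM in WT on ND, 1018, 983 and 1465 in WT on HFD, 979, 1405 and 1313 in null on ND and 927, 1480 and 1207 in null on HFD. The 4 female differences lay between -0.03 and 0.27 with SE of 0.25. A processed pseudogene, Glns-ps1, shares sequence with Glul and was assigned 0.89% to 1.91% as many reads in males and 1.33% to 5.02% in females, so a part of the Glul reads is uncertain.

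Oat encodes ornithine aminotransferase, which links ornithine to glutamate. Its male values ran from 63.6 CPM in null ND library 1 to 1549 in a WT library on HFD, and the highest was 2.56-fold the lowest among the other 11 libraries, below the 3.63-fold of Tbx3. Apart from that library, male WT had 823, 1526 and 912 CPM on ND and 1549, 1252 and 791 on HFD, and null males 1005 and 604 on ND and 993, 955 and 852 on HFD. In females values ran from 669 to 1934 CPM. All groups overlapped in both sexes. The male genotype difference on ND was -0.96 ± 0.66 with that library and -0.43 ± 0.32 without it, and the female one was -0.45 ± 0.40.

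Slc1a2 encodes a sodium-dependent glutamate transporter of the plasma membrane. WT males had 150, 177 and 162 CPM on ND and 272, 232 and 283 on HFD. The HFD libraries were all higher, with a log2 difference of 0.69 ± 0.40 (adjusted p = 0.851), and of 0.69 ± 0.18 (95% interval 0.30 to 1.08, adjusted p = 0.0973) without null ND library 1. In that contrast 23.0% of genes had groups that did not overlap. Null males had 65.2, 262 and 225 CPM on ND and 285, 313 and 200 on HFD. Without the first of these, the ND groups of the 2 genotypes did not overlap, as was the case for 40.3% of all genes, and null was higher by 0.58 ± 0.20 (adjusted p = 0.185). With it the difference was 0.18 ± 0.40. Female values of 114 to 235 CPM overlapped between all groups, and the female diet difference in WT was 0.15 ± 0.26.

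Rhbg encodes an ammonium transporter of the Rh glycoprotein family. Male WT had 6.75, 7.25 and 6.75 CPM on ND and 10.2, 4.47 and 4.30 on HFD, and null males 2.41, 5.70 and 3.596 on ND and 10.5, 12.5 and 6.25 on HFD. On ND every null library was below every WT one (log2 difference -0.80 ± 0.41, adjusted p = 0.31, and -0.57 ± 0.39 without library 1). In that contrast 22.8% of all genes had groups that did not overlap, and 40.3% without that library. Within the null males every HFD library was above every ND one, by 1.29 ± 0.41 (adjusted p = 0.434), or 1.07 ± 0.38 without library 1 (adjusted p = 0.585). This was the largest diet difference of a member in either sex, in a contrast where 12.1% of genes, or 19.9% without the library, did not overlap. The interaction of genotype and diet was 1.42 ± 0.57 (adjusted p = 0.891), or 1.20 ± 0.52 without library 1 (adjusted p = 0.632). Female Rhbg ranged from 4.62 to 19.6 CPM, with overlap everywhere and a diet difference in null of 0.03 ± 0.49.

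Lect2 encodes a secreted chemotactic protein made by hepatocytes. In males it had 118, 142 and 116 CPM in WT on ND, 206, 192 and 133 in WT on HFD, 66.2, 126 and 106 in null on ND and 169, 143 and 178 in null on HFD. In null every HFD library was higher than every ND one, by 0.71 ± 0.27 with all libraries (adjusted p = 0.434) and 0.49 ± 0.21 without library 1 (adjusted p = 0.706). In that contrast 12.1% of genes, or 19.9% without the library, did not overlap. In WT the difference was 0.49 ± 0.27 and a single HFD library, at 133 CPM, fell within the range of ND. Female libraries ran from 208 to 405 CPM and overlapped between groups. Male and female levels were scaled apart, and sex and kit cannot be told apart, so the ranges of the sexes are not compared.

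Axin2 is a scaffold of the β-catenin destruction complex and a feedback target of the pathway. Male WT libraries had 6.57, 7.90 and 7.78 CPM on ND and 17.5, 6.13 and 14.4 on HFD. Null males had 6.96, 12.6 and 8.56 on ND and 15.3, 12.1 and 5.77 on HFD. The HFD groups held both the highest and the lowest male values. Without null ND library 1 the null ND group lay above WT ND, by 0.52 ± 0.43 (adjusted p = 0.54), where 40.3% of genes did not overlap. Females had 3.70 to 16.04 CPM, with both extremes in null on HFD, and the 4 female differences were between 0.06 and 0.35 with SE of at least 0.44.

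Tbx3 encodes a T-box repressor that acts downstream of β-catenin in liver. It had 38.8, 22.2 and 22.0 CPM in male WT on ND, 68.1, 18.8 and 62.6 in WT on HFD, 23.1, 66.5 and 27.0 in null on ND and 54.5, 53.1 and 26.5 in null on HFD. Each male group but the first thus mixed libraries above 50 with libraries below 30 CPM. Female libraries had 20.5 to 44.7 CPM on ND, and each female HFD group held values both above 50 and below 30, up to 65.0 in null. No Tbx3 comparison between 2 groups lacked overlap, and SE of these comparisons ran from 0.41 to 0.59 on the log2 scale.

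Lgr5 is the receptor that R-spondins bind to hold Wnt receptors at the cell surface. In females it had 21.8, 14.0 and 15.1 CPM in WT on ND, 11.2, 10.8 and 17.3 in WT on HFD, 4.78, 6.74 and 6.87 in null on ND and 9.78, 9.25 and 17.3 in null on HFD. The null ND libraries, which held 11, 15 and 17 reads, were all below those of WT on ND. The genotype difference on ND was -1.46 ± 0.35 (95% interval -2.21 to -0.71, adjusted p = 0.144), and it was the lowest adjusted p of a member among the 10 comparisons with all libraries. In that contrast 11.3% of genes had groups that did not overlap. DESeq2 gave an adjusted p of 0.0571 for it. With no filter on low counts edgeR gave 0.0265 at the same size, which is the sole call of a member in any setting, in a fit that called 0.5% of 24203 genes. Without WT ND library 1 the difference was -1.24 (adjusted p = 0.432).

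The first component of the group-centred female libraries held 38.6% of their variance, and its sign divided them into sides of 5 and 7 libraries. With a term for these sides in the fit, the Lgr5 difference was -1.47 (adjusted p = 0.082). Summed hepatocyte markers overlapped between the female WT ND and null ND groups (93293 to 105775 CPM in WT, 87521 to 128130 in null). So did the 12 endothelial markers on ND (142 to 265 in WT, 181 to 235 in null). In the null females every HFD library of Lgr5 was above every ND one, by 0.99 ± 0.35 (adjusted p = 0.963), where 11.2% of genes did not overlap. In WT the diet difference was -0.37 ± 0.32, with overlap, in a contrast where 7.86% of genes did not. The interaction was 1.36 ± 0.48 (adjusted p = 1.0). The genotype difference on ND, the diet difference in null and the interaction share the null ND libraries.

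Male Lgr5 had genotype differences of the opposite sign. It had 6.75, 8.12 and 7.09 CPM in WT on ND and 9.10, 8.55 and 13.3 in null on ND, all null libraries being higher (0.50 ± 0.31, adjusted p = 0.388, and 0.58 ± 0.32 without null ND library 1). On ND 22.8% of genes did not overlap, or 40.3% without that library. On HFD the values were 9.49, 6.22 and 6.20 in WT and 9.91, 18.6 and 9.62 in null, again without overlap (0.80 ± 0.31, adjusted p = 1.0), in a contrast where 8.27% of genes did not overlap. The female minus male genotype effect in the fit of all 24 libraries was -1.96 ± 0.47 on ND (adjusted p = 0.202) and -0.91 ± 0.45 on HFD (adjusted p = 1.0). On ND that fit called 0.0332% of genes. Of 11113 genes tested in both tables, 1.25% had groups that did not overlap in either sex on ND and lay in opposite directions, as Lgr5 did. Without null ND library 1 the ND value was -2.01 (adjusted p = 0.23).

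**Figure D3:**
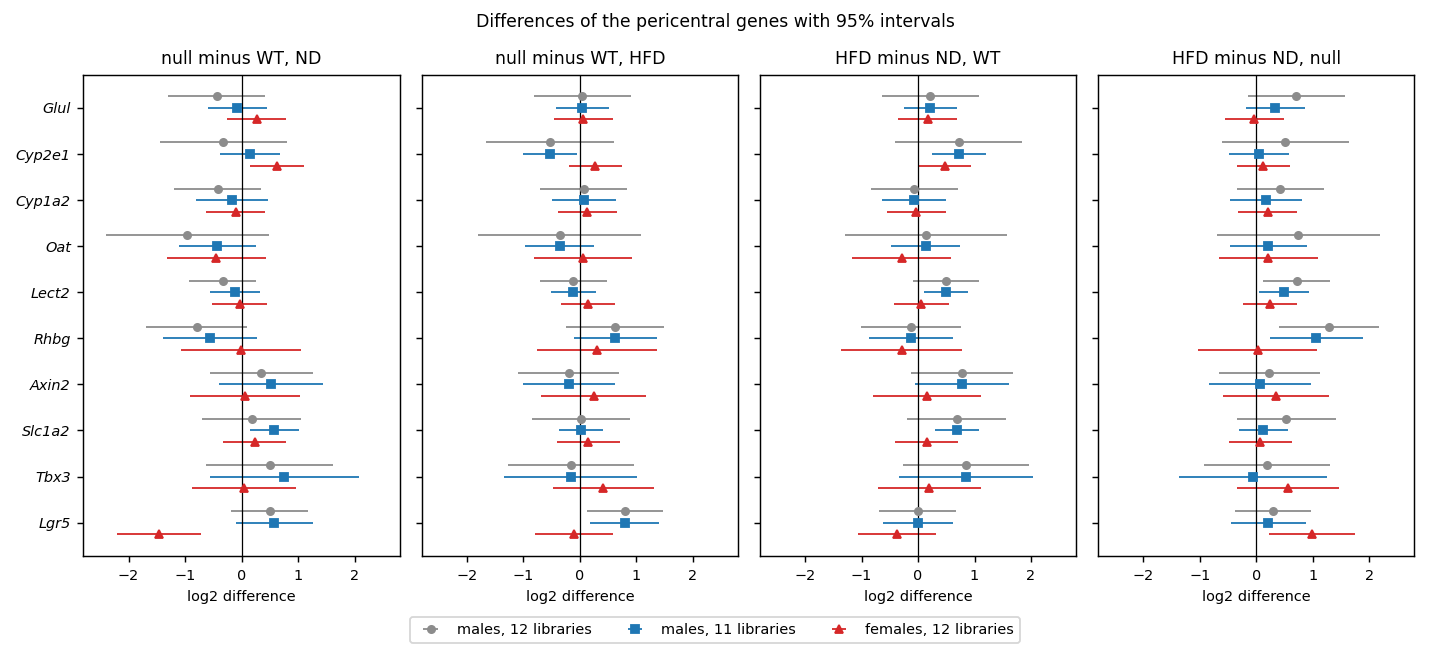
Difference of each member (horizontal axis, log2; bars are 95% intervals of the edgeR fit) in the 4 comparisons between 2 groups, for males with 12 libraries, males without null ND library 1 and females. Most intervals span 0, and the female Lgr5 interval on ND runs from -2.21 to -0.71.

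As a group the members were spread to both sides of 0 in most comparisons. In null males their median diet difference was 0.52, with 10 of 10 above 0, beside a median of -0.01 over all tested genes. Without null ND library 1 it was 0.19, with 9 of 10 above 0. The genotype difference on ND had a median of -0.33 in males with that library (6 of 10 below 0; all genes 0.06) and 0.03 without it (5 below 0). Male WT had a median diet difference of 0.36, with 7 above 0, and 0.36 without the library. On HFD the male genotypes differed by a median of -0.05, with 5 above 0. In females the medians were 0.01 and 0.15 for genotype on ND and HFD (5 and 9 of 10 above 0) and 0.11 and 0.21 for diet in WT and null (6 and 9 above 0), with all-gene medians between -0.02 and 0.01. Comparisons of diet and of genotype share libraries, so these medians are not independent of one another.

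Male null ND library 1 lay below all 11 other male libraries for 7 of the 10 members, the exceptions being Axin2, Tbx3 and Lgr5. Among all tested genes 37.1% lay below and 33.7% above all others in this library. Oat was 12.7-fold lower than the mean of libraries 2 and 3 of its group, Cyp2e1 6.08-fold, Slc1a2 3.74-fold and Glul 3.10-fold. Tbx3, Cyp1a2 and Rhbg were lower by 2.02-fold, 1.94-fold and 1.93-fold, Lect2 by 1.75-fold, Axin2 by 1.52-fold and Lgr5 by 1.20-fold. In the same library the 12 endothelial markers summed to 465 CPM against 197 to 295 in the others. Of these 12, 5 lay above and 3 below all other libraries, and Stab1 alone, at 180 CPM against 39.1 to 64.1, held 38.7% of the sum. The 7 lymphocyte markers summed to 74.4 CPM against 8.12 to 26.5, with 4 above all others. The 10 Kupffer cell markers summed to 260 CPM, within the range of 141 to 312. Of these 10, 2 lay above and 4 below all other libraries. Clec4f alone, at 170 CPM against 42.4 to 119, held 65.2% of that sum. The part of these cell type markers in the low member levels was not tested.

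**Figure D4:**
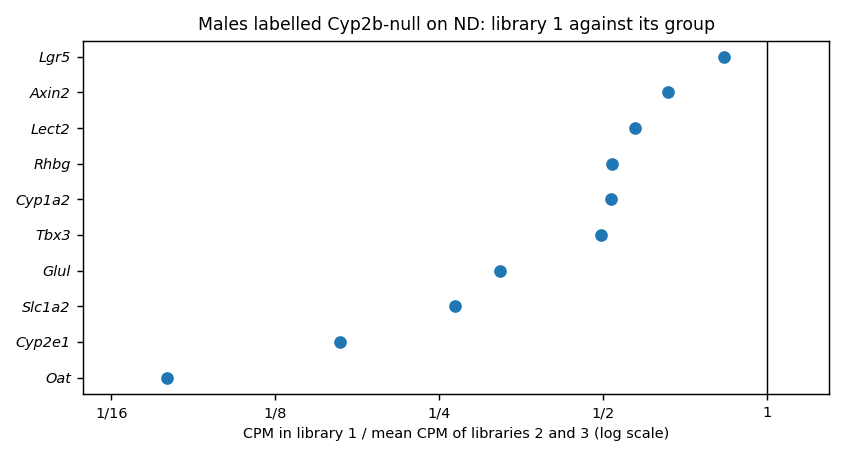
Level of each member in male null ND library 1 divided by the mean of libraries 2 and 3 of the same group (horizontal axis, log scale with base 2). All 10 points lie left of 1, from a 12.7-fold lower Oat to a 1.20-fold lower Lgr5.

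Of 26 other pericentral genes, all were tested in males and 25 in females, and with all libraries none was called in any comparison. On ND, 18 of the 26 were below 0 in null males (median -0.54, and -0.26 with 17 below 0 without null ND library 1) and 14 of 25 in null females (median -0.06). Avpr1a, the vasopressin receptor of hepatocytes, had the smallest p in both: it averaged 25.6 ± 7.8 CPM in WT and 12.2 ± 2.4 in null males without library 1 (SD, n = 3 and 2; log2 difference -1.06 ± 0.27, adjusted p = 0.111), and 58.0 ± 5.2 against 30.3 ± 1.4 CPM in females (SD, n = 3; -0.94 ± 0.22, adjusted p = 0.146). With all libraries the male Avpr1a difference was -1.17 ± 0.28 (adjusted p = 0.184). Without library 1, a single gene of the list was called. Cyp3a11, a P450 that oxidises steroids and drugs, averaged 3944 ± 672 CPM on ND and 894 ± 457 on HFD in WT males (SD, n = 3). It fell by 2.14 ± 0.37 on the log2 scale (edgeR adjusted p = 0.0288), in a fit that called 0.72% of genes. With all libraries the lowest edgeR adjusted p of the list in this comparison was 0.25, and 0.0% of genes were called. That p belonged to Gstm3 (log2 difference -2.29 ± 0.43) and not to Cyp3a11. Library 1 belongs to neither of these 2 groups and enters only through the shared fit. In null males the diet difference of Cyp3a11 without library 1 was -2.18 ± 0.41 (edgeR adjusted p = 0.108). Cyp3a11 has close paralogues, so reads could be shared and its own count is uncertain. Gstm3, a glutathione transferase, averaged 80.0 ± 13.7 CPM on ND and 26.8 ± 9.8 on HFD in WT females (SD, n = 3; -1.58 ± 0.27, adjusted p = 0.116).

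Of 22 periportal genes, those of the opposite end of the lobule, none was called in either sex. Their median diet difference in WT males was -0.33 (17 of 22 below 0), beside 0.36 for the 10 members. The 26 other pericentral genes had a median of 0.03 in that comparison, with 13 above and 13 below 0. For genotype on ND in males the periportal median was -0.41 with all libraries (14 of 22 below 0). Without null ND library 1 it was -0.20 (16 below 0). In females the periportal median for genotype on ND was -0.35, with 15 of 22 below 0. Hal, which degrades histidine, had the smallest p for diet in WT males, at -0.92 ± 0.33 (adjusted p = 0.637) with all libraries. Without null ND library 1 it was -0.92 ± 0.28 (adjusted p = 0.137). Apoa4, an apolipoprotein, had the smallest p for genotype on ND in females (1.03 ± 0.29, adjusted p = 0.335).

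The Wnt and R-spondin ligands, receptors and transducers numbered 25, of which 22 were tested in males and 21 in females, and none was called. Their medians for genotype on ND were -0.04 in males (0.06 without null ND library 1) and -0.23 in females. Fzd4, a Wnt receptor, averaged 9.82 ± 1.79 CPM in WT and 31.0 ± 7.9 in null males on ND without library 1 (SD, n = 3 and 2; 1.66 ± 0.40, adjusted p = 0.097), while library 1 held 3 reads of it. With all libraries the lowest adjusted p of this list for male genotype on ND was 0.206, which belonged to Lrp5 (-0.69 ± 0.20) and not to Fzd4. Fzd8, another Wnt receptor, was 0.79 ± 0.26 higher on HFD in null females (adjusted p = 0.963). Of 12 feedback targets, 9 were tested in males and 8 in females, and again none was called. Myc, a target in many tissues, had a genotype difference on ND of 2.40 ± 0.91 in females (adjusted p = 0.597) and of -2.20 ± 0.80 in males (adjusted p = 0.226), or -2.46 ± 1.04 without null ND library 1 (adjusted p = 0.308).

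Among 16 genes of glutamine and ammonia handling, 15 were tested in males and 13 in females, with none called and medians for genotype on ND of -0.21 (-0.09 without null ND library 1) and -0.04. Of 13 regulators and partners of P450 enzymes, 11 were tested in males and 10 in females. None was called. Por, the reductase that feeds electrons to microsomal P450 enzymes such as Cyp2e1 and Cyp1a2, had the lowest adjusted p of any list member in females: it averaged 248 ± 56 CPM in WT and 555 ± 54 in null on ND (SD, n = 3; 1.16 ± 0.24, adjusted p = 0.0816). In WT males Por was 0.90 ± 0.28 higher on HFD with all libraries (adjusted p = 0.541), and 0.90 ± 0.22 without library 1 (adjusted p = 0.0741). Nr1i3, the nuclear receptor CAR, was 2.15 ± 0.52 higher in null males on ND (adjusted p = 0.185), and 1.60 ± 0.50 higher without library 1 (adjusted p = 0.157).

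The genes whose levels followed Glul most closely were looked up by Pearson r of log2 CPM over the libraries of a table. In males these were Glns-ps1 (0.991), Ankib1 (0.986) and Ube3c (0.976) over 12 libraries. Over the 11 without null ND library 1 they were Glns-ps1 (0.960), Ankib1 (0.953) and Tmtc3 (0.934). Glns-ps1 is the pseudogene that shares sequence with Glul, so reads could be shared. In females they were Col27a1 (0.919), Noct (0.902) and Fam107b (0.891) over 12. These are the highest of 8340, 8359 and 8456 genes ranked, and all points share the scaling of their libraries, so they are given as a description.

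To see which members varied together within groups, group means were removed from log2 CPM and the 45 pairs correlated over the libraries of a table, with exact two-sided permutation of libraries within groups. No pair passed after Benjamini-Hochberg adjustment over the 45, in males, in males without null ND library 1 or in females. The smallest p the design allows is 0.000772 with 12 libraries and 0.00231 with 11. For a single pair these adjust to 0.0347 and 0.104, so with 11 libraries no pair could have passed on its own and the absence of a call there says nothing. In males 44 of 45 r were above 0, with a median of 0.55. Without that library 37 were, with a median of 0.33, and in females 32, with a median of 0.25. Glul and Oat had r = 0.95 (rho = 0.86, exact permutation p = 0.0077, adjusted 0.185) over 12 male libraries, and r = 0.83 (rho = 0.84, exact permutation p = 0.037, adjusted 0.354) over 11. Without the 2 libraries farthest from the median of Glul, r was 0.76 and 0.81.

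Axin2 and Tbx3 had r = 0.84 (rho = 0.81, exact permutation p = 0.0394, adjusted 0.354) over the 11 male libraries and r = 0.77 (rho = 0.80, exact permutation p = 0.0093, adjusted 0.125) over the 12 female ones. With the 2 farthest libraries left out, r was 0.62 and 0.70. Glul and Lect2 had r = 0.86 in females (rho = 0.85, exact permutation p = 0.0031, adjusted 0.125; 0.79 without the 2 farthest). Axin2 ran against Lect2 in females, with r = -0.72 (rho = -0.74, exact permutation p = 0.0247, adjusted 0.159; -0.81 without the 2 farthest).

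**Figure D5:**
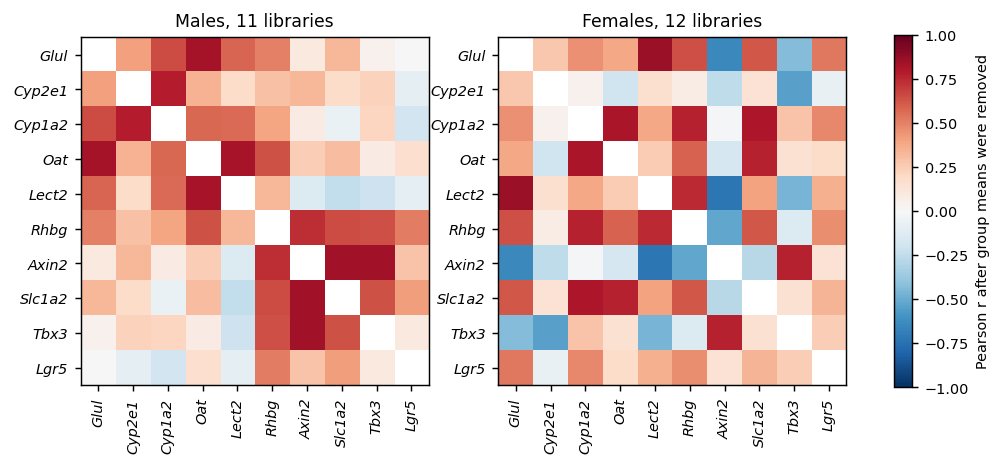
Pearson r between members across libraries after group means were removed, for 11 male libraries (left, without null ND library 1) and 12 female libraries (right). Colour runs from -1 (blue) to 1 (red) and the diagonal is blank. Axin2 and Tbx3 are red in both (0.84 and 0.77), and no pair passed the adjusted test.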

How the data were processed

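Raw read counts per gene symbol were deposited as 1 table per sex. The submitters' processing notes list FastQC, Trimmomatic, GSNAP and Subread, then edgeR, with GRCm38.p5 as build. For versions, settings and strand nothing was given in the sources used here. RNeasy Plus Universal and TruSeq Total RNA kits served for males, Trizol and NEB Next Ultra RNA for females, per the labels' protocols. Groups and replicate numbers were read from the titles.

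The rows of 1801 male symbols that were listed repeatedly were summed. Each table also held 25 symbols that had become dates, which stayed out of the tests and took at most 0.16% of a library. All pairs of libraries in a group differed by more than sampling noise, with a chi-square of at least 5.57 per degree of freedom. Each table was fitted, 1 term per group, in edgeR 4.0.16 under R 4.3.3 with TMM scaling, filterByExpr by group and robust quasi-likelihood, which left 14873 genes in males, 15139 without null ND library 1 and 11830 in females. Fitting the groups together gives 1 shared estimate of the spread. P-values were adjusted over all of these by Benjamini-Hochberg. Levels are TMM-scaled CPM, and log2 CPM for correlations used a prior count of 2. Alternatives were RLE scaling, no scaling factors, DESeq2 1.42.0, no filter, a fit of the compared groups alone, the first row of repeated symbols, the replicate number as a block, a term for the female sides, and leaving out each library. The edgeR fit was also run on simulated negative binomial counts with known genotype differences on ND. These held no divergent library and no female sides, so they say nothing of either.

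Deviations of same-numbered libraries from their group means had r above 0.1 in each pair between WT ND and WT HFD. These r were 0.110 to 0.127 in males and 0.139 to 0.564 in females. In the other comparisons at least 1 pair was not above 0.1. Differently numbered libraries were not correlated, so these r have no reference. No label says that a number marks a shared batch. All 10 members are named; of each list, called genes and otherwise the gene with the smallest unadjusted p below 0.05 could be named, and those printed are a part of these, picked with their values in view. The members and lists were chosen with earlier results of these data known. Marker lists for hepatocytes, endothelium, Kupffer cells and lymphocytes are given in the text. Those for stellate cells (137 to 297 CPM in males, 193 to 308 in females), cholangiocytes (29.4 to 89.0, 20.7 to 67.6), adipocytes (0 to 7.36, 0 to 4.95) and blood (98.1 to 288, 136 to 333) were summed likewise.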

Additional observations from a re-analysis of the deposited data

Results flagged for a closer look

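For 2 members the genotype effect had opposite signs in the sexes, in libraries that did not overlap. Lgr5 on ND was lower in every null female library and higher in every library of males labelled Cyp2b-null, with a female minus male effect of -1.96 ± 0.47 on the log2 scale in the edgeR fit of 24 libraries (adjusted p = 0.202). Cyp2e1 on HFD was higher in every null female library and lower in every male one, with an effect of 0.80 ± 0.57 (adjusted p = 1.0). Such opposite directions without overlap were found in 1.25% of the 11113 genes tested in both tables on ND and in 0.252% on HFD. Neither difference passed the threshold, and sex cannot be told apart from the kits.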

How the results depend on the processing

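The 10 members gave 100 differences, none called with the settings as reported. Over 1420 values under other settings 1315 kept their sign, and 51 of the 100 differences kept it in every setting run. The count of members called stayed at 0 in all comparisons and settings but one: with no filter on low counts it was 1 in females for genotype on ND (Lgr5, log2 difference -1.46, adjusted p = 0.0265). Leaving out 1 library at a time moved that Lgr5 difference between -1.56 and -1.24 (adjusted p 0.252 to 0.481). The replicate block gave -1.47 (adjusted p = 0.167) and changed no call of a member. With the joint fit restricted to 23 libraries, Lgr5 had -2.01 and Cyp2e1 0.79. With no scaling factors the median of all genes in males was 0.16 for genotype on ND, against 0.06. Over all genes, leaving out male null ND library 1 moved the calls for diet in WT males from 0 to 109, leaving out male null ND library 2 moved those for genotype on ND from 2 to 724, DESeq2 moved these from 2 to 427 and those for diet from 0 to 77 in WT and 112 in null males, and dropping the filter moved those for genotype on ND in females from 15 to 121. Low female depth limits Rhbg, Axin2 and Lgr5, whose libraries held 8 to 52 reads.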
